A study of Drosophila melanogaster with 2 samples.

Results

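The nuclear tRNA genes of Drosophila melanogaster were examined for peaks of CG12744, a protein assayed as a transcription factor. They were taken from the Release 6 (dm6) annotation as the genes of biotype tRNA on the 6 chromosome arms that carry peaks, which gave 290 of 18164 annotated genes. The peaks came from chromatin immunoprecipitation with an anti-GFP antibody, followed by sequencing, in whole embryos collected at 0 to 24 h with males and females mixed. Both samples were of 1 transgenic line in which CG12744 carries GFP at its C terminus, expressed from a stable insertion. They were biological replicates 2 and 4 of a single group, so the design held no comparison between conditions, and peaks from different cells of the embryo cannot be separated. Chromatin was sonicated to fragments of 200 to 800 bp.

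A tRNA gene is transcribed by RNA polymerase III from a promoter that lies inside the gene. Its A box and B box are bound by the factor TFIIIC, which places TFIIIB, built of Brf, Bdp1 and a TATA-binding protein, just upstream of the start. RNA polymerase III and its factors are often detected at tRNA genes in immunoprecipitated chromatin, and in several species tRNA genes are also known to act as chromatin boundaries. Most tRNAs are encoded by many copies, spread over single sites and clusters. In these annotations the 290 genes had 95 distinct sequences, 238 genes had at least 1 identical copy, and the median length was 73 bp.

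Few tRNA genes had a strong CG12744-GFP peak. A gene was counted when a peak summit lay within 500 bp of its start. In the authors' thresholded list of 2758 peaks this held for 11 of 290 tRNA genes, 3.79% (exact 95% binomial interval 1.91 to 6.69%), through 10 distinct peaks. Over all genes the share was 10.6%, over protein-coding genes 12.7% and over ncRNA genes 3.71%. The tRNA share was therefore below that of protein-coding genes and close to that of ncRNA genes. These intervals cover counting error only, and genes that share a peak are not independent. Ranks below count from 1 for the highest deposited signal in a list, and signals, whose scale is not stated, were compared only within a list.

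The strongest peak at a tRNA gene stood well apart from the others. It lay at tRNA:Tyr-GTA-1-8, a tyrosine tRNA gene in an intron shared by CG8036 and pink (p), and ranked 89 in the pooled list with a signal of 338. Replicate 2 placed it at rank 82 with a signal of 183, and replicate 4 at rank 101 with a signal of 153. The summit was 219 bp upstream of the tRNA start and 225 bp from a start of CG8036, so position does not assign it to either gene. The called peak, 8669247 to 8669478, did not overlap the tRNA gene. Tyrosine tRNA genes carry an intron that is removed from the transcript. The 9 genes of this set, Tyr-GTA-1-1 to Tyr-GTA-1-9, gave 1 spliced sequence of 73 bases and differed in the intron. In the 3-gene cluster on arm 3R the first 45 and the last 47 bases were identical, and the bases that set the copies apart lay between. These 3 genes are printed on the coding strand, with the core of the B box (GTTCNANNC) in capitals. They are near-identical neighbours that differed in the peaks within 500 bp of their starts.
tRNA:Tyr-GTA-1-8 (dm6 chr3R:8669081-8669174, minus strand): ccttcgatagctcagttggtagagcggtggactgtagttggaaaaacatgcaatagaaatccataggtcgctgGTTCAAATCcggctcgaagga
tRNA:Tyr-GTA-1-7 (dm6 chr3R:8668612-8668705, minus strand): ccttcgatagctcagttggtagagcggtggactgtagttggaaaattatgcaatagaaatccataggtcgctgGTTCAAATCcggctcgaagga
tRNA:Tyr-GTA-1-6 (dm6 chr3R:8668116-8668208, minus strand): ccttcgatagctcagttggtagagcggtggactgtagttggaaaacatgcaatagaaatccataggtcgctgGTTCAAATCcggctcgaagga
The start of tRNA:Tyr-GTA-1-7 was 688 bp from the summit, outside the window, and this gene had no pooled peak of its own. tRNA:Tyr-GTA-1-6 had a pooled peak at rank 7605. In the 101 bases centred on the rank 89 summit, shown next on the plus strand, neither CACTG nor its reverse complement occurred.
Tyr-GTA-1-8 summit (dm6 chr3R:8669343-8669443, plus strand): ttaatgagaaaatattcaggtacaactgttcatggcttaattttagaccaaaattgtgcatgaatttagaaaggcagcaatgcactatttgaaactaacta

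A thresholded peak far from any protein-coding start lay at tRNA:Gln-TTG-2-1, a single glutamine tRNA gene in an intron of CG12535 on the X chromosome. It ranked 481 in the pooled list with a signal of 165, and its summit was 255 bp upstream of the tRNA start and 8029 bp from the nearest coding start, that of CG14269. The called peak, 3427573 to 3427982, did not overlap the tRNA gene. In replicate 2 it ranked 468 (signal 90.4) and in replicate 4 it ranked 511 (signal 75.4), with summits 9 and 51 bp from the pooled one. No other gene of any class had a start within 500 bp of this summit. The gene, which has a sequence of its own, and its summit are printed to show that the B box core (capitals) lay in the gene and outside the summit sequence.
tRNA:Gln-TTG-2-1 (dm6 chrX:3427452-3427523, minus strand): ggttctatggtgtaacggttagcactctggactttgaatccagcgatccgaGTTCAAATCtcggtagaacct
Gln-TTG-2-1 summit (dm6 chrX:3427728-3427828, plus strand): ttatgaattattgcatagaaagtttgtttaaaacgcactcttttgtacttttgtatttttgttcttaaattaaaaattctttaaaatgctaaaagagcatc
Neither CACTG, CAACACTG nor TATCGATA, the site of the factor Dref, was found on either strand within 100 bp of this summit.

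Other thresholded peaks at tRNA genes also had a protein-coding start within 500 bp of the summit. At tRNA:Phe-GAA-1-2, a single phenylalanine gene, the peak ranked 746 (signal 134 in the pooled list, 82.1 in replicate 2 and 51.3 in replicate 4). Its summit was 224 bp downstream of the tRNA start and 81 bp from a start of RpL17, which encodes a protein of the large ribosomal subunit. At tRNA:Val-CAC-2-5, a single valine gene inside Naam, which encodes a nicotinamidase, the peak ranked 770 (signal 132 pooled, 85.4 in replicate 2, 45.2 in replicate 4). The summit was 458 bp downstream of the tRNA start and 441 bp from a start of Naam. The called peak, 19671686 to 19672095, did not overlap the tRNA gene. At tRNA:Thr-AGT-1-4 the rank was 1496 (signal 95.2 pooled, 52.8 in replicate 2, 40.5 in replicate 4), 116 bp upstream of this threonine gene and 373 bp from a start of CG31279. The summit sequences of these 3 peaks are printed because they hold CACTG (capitals, as CAGTG where it reads on the minus strand), and the first holds CAACACTG, of which CACTG is the end. Both motifs were chosen with earlier results of these data known.
Phe-GAA-1-2 summit (dm6 chrX:6744269-6744369, plus strand): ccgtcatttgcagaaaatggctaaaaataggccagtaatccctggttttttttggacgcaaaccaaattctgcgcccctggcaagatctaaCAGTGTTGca
Val-CAC-2-5 summit (dm6 chr3R:19671841-19671941, plus strand): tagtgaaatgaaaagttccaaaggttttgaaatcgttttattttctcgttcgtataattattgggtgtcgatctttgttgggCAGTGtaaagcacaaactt
Thr-AGT-1-4 summit (dm6 chr3R:16431774-16431874, plus strand): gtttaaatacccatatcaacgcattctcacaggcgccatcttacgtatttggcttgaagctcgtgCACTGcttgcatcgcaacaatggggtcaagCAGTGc
Counted within 100 bp of the summit on both strands, CACTG occurred in 3 of the 10 thresholded peaks at tRNA genes (30%, interval 6.67 to 65.2%), against 48.3% of all 2758 thresholded peaks. CAACACTG occurred in 1 of 10, against 3.92% of all thresholded peaks. With 10 peaks neither share can be told from that of the whole list.

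Genes of identical tRNA sequence differed in the peaks near their starts. A summit was counted within 500 bp of the start, so a peak can lie outside the shared sequence, as the valine peak did. The valine gene just described has 5 other genes with the same 73 bases, all on arm 3R, and the shared sequence is printed once with the B box core in capitals.
tRNA:Val-CAC-2-5 (dm6 chr3R:19672277-19672349, minus strand): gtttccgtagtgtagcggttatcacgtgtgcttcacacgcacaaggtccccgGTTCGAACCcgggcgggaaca
None of the 5 copies had a thresholded peak. tRNA:Val-CAC-2-4 had a pooled peak at rank 18227 and a replicate 2 peak at rank 8132, with none in replicate 4. tRNA:Val-CAC-2-3 had only a replicate 2 peak (rank 13119), and tRNA:Val-CAC-2-2 and tRNA:Val-CAC-2-6 had only replicate 4 peaks (ranks 26787 and 15632). tRNA:Val-CAC-2-1 had none in any list. Of the 43 sequences carried by 2 or more genes, 37 had some copies with a pooled peak and others without, 4 had a peak at every copy and 2 at none. A pooled peak lay at 140 of the 238 genes with an identical copy (58.8%) and at 29 of the 52 genes of unique sequence (55.8%). The sources used here do not say how reads that match several copies were treated.

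The remaining thresholded peaks included 3 on arm 2R. At tRNA:His-GTG-1-3, a histidine gene in a 4-gene cluster, the peak ranked 572 (signal 152 pooled, 101 in replicate 2, 52.7 in replicate 4), 150 bp upstream of the gene and 100 bp from a start of CG8490. At tRNA:Glu-TTC-1-5, a glutamate gene in a 7-gene cluster, it ranked 832 (signal 128 pooled, 85.9 in replicate 2, 36.3 in replicate 4), 181 bp downstream of the tRNA start. The nearest coding start to that summit was 13274 bp away, and snoRNA:185, a small nucleolar RNA gene, had a start within 500 bp of it. A single peak of rank 1801 (signal 85.8 pooled, 56 in replicate 2) served both tRNA:Trp-CCA-2-2, 251 bp upstream of the gene, and tRNA:Gly-GCC-1-9, 490 bp downstream of its start. It was 36 bp from a start of CG30122 and was the only thresholded peak at a tRNA gene with the Dref site TATCGATA, which 4.6% of all thresholded peaks held. Its replicate 4 summit, 72 bp away, had a signal of 33.8 and lay within 500 bp of tRNA:Trp-CCA-2-2 only.

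The other thresholded peaks were at a leucine and a proline gene. tRNA:Leu-TAA-2-1, a leucine gene of unique sequence on arm 3R, had a peak of rank 1798 (signal 85.9 pooled) 234 bp upstream, 341 bp from a start of CG13605. It ranked 2813 in replicate 2 (signal 39) and 1351 in replicate 4 (signal 47.1). tRNA:Pro-CGG-2-3, a proline gene in an exon of not, which encodes a subunit of the SAGA deubiquitinase module, had the weakest, at rank 2432 (signal 73 pooled). Replicate 4 had it at rank 2857 (signal 32.1) 3 bp from the pooled summit, but the summit that replicate 2 had near this gene ranked 9387 (signal 20.2) and lay 157 bp away. The 10 signals ran from 73 to 338 with a median of 130, and the median of all thresholded peaks was 99.1.

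The rule for counting has 2 edges. By distance, tRNA:Gly-GCC-1-9 at 490 bp was the outermost gene inside, and tRNA:Ile-AAT-1-9, an isoleucine gene 571 bp from a peak of rank 1065 (signal 113), was the nearest outside. By rank, the 8 highest genes outside the thresholded list were tRNA:Arg-CCT-1-2 and tRNA:Arg-CCT-1-3, which share a peak of rank 2960 (signal 65.9), tRNA:Gly-TCC-2-2 at 3192 (signal 63.2), tRNA:Arg-ACG-1-4 and tRNA:Lys-CTT-1-5 with a shared peak at 3390 (signal 61.3), tRNA:Gln-CTG-2-3 at 3639 (signal 59.2), and tRNA:Val-AAC-2-1 and tRNA:Val-AAC-2-2 with a shared peak at 3901 (signal 56.9). Of these peaks only that of tRNA:Gln-CTG-2-3 was near a coding start, 68 bp from one of CG4238. The arginine pair had a replicate 2 peak of rank 1486 and no replicate 4 peak within the window. Both replicates had a peak at tRNA:Gly-TCC-2-2 (ranks 2632 in replicate 2 and 6013 in replicate 4) and at the tRNA:Arg-ACG-1-4 pair (ranks 4723 and 3982).

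Weak peaks, meaning entries of the pooled list below the threshold, were far more frequent at tRNA genes than thresholded ones. The authors labelled this list as peaks and background together, so its lower entries can include background. In the pooled list of 30000 peaks, most of which fall short of the threshold, 169 of 290 tRNA genes had a summit within 500 bp, 58.3% (interval 52.4 to 64%). The share was 47.2% over all genes, 52.3% over protein-coding genes and 29.7% over ncRNA genes. The 169 genes shared 125 distinct peaks, of which 88 were at 1 tRNA gene and 37 at several, up to 4. The order of the gene classes thus depended on how far down the list peaks were taken. Among the 1000 highest peaks, 2.07% of tRNA genes had one, against 4.07% of all genes. Among the 10000 highest the shares were 25.9% for tRNA genes and 28.3% for all genes. At 15000 they were 38.3% and 34.8%, and at 20000 the tRNA share of 46.2% was also above the 45.2% of protein-coding genes. Clustered tRNA genes, where a peak can count for several, had 42.1% at 15000 and 49.1% at 20000. Single tRNA genes were below all genes at 15000 (27.6% against 34.8%) and at 20000 (38.2% against 39.8%). At 25000 they had 44.7%, against 43.9% of all genes. The median of the best pooled ranks at the 169 genes was 11051, with quartiles of 6232 and 18005. A count over all 30000 peaks is thus mostly a count of peaks below the authors' threshold.

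**Figure D1:**
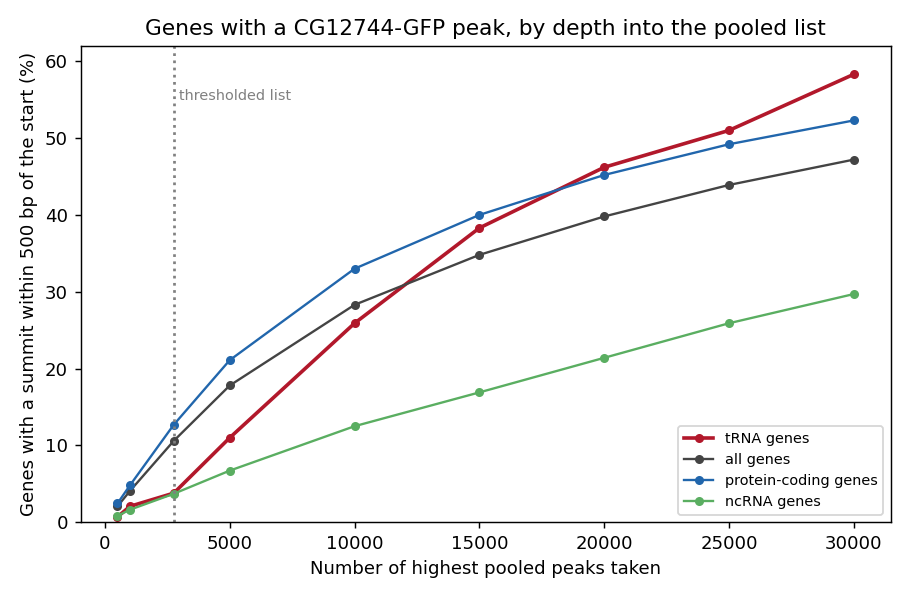
Share of genes (y axis, percent) with a summit within 500 bp of the start among the N highest pooled peaks (x axis, number of peaks), for tRNA genes, all genes, protein-coding genes and ncRNA genes. The tRNA line lies with ncRNA genes at the thresholded list (dotted line, 3.79% and 3.71%) and crosses that of all genes between 10000 and 15000 peaks. Single tRNA genes, not drawn, had 27.6% at 15000 peaks, against 34.8% of all genes.

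Peaks of any rank, most of them weak, were unevenly repeated. Replicate 2 had a peak at 201 tRNA genes (69.3%, against 48.5% of all genes), replicate 4 at 138 (47.6%, against 43.6%). Both lists held 30000 peaks. Peaks in both replicates lay at 114 tRNA genes, 39.3% (interval 33.7 to 45.2%), against 35% of all genes, 39.9% of protein-coding genes and 18.2% of ncRNA genes. Clustered tRNA genes, where a peak can count for several, had 42.5% and single ones 30.3%, the latter below all genes. A further 87 tRNA genes had a peak in replicate 2 alone and 24 in replicate 4 alone, and 65 had none in any list. Of tRNA genes with a replicate 2 peak, 56.7% also had one in replicate 4, against 72.1% over all genes. The difference between tRNA genes and all genes was thus mainly in replicate 2, and there at clustered genes (76.2%). Single tRNA genes had 50% in replicate 2, against 48.5% of all genes. The read depth of the libraries is unknown.

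Peak by peak, those at tRNA genes were repeated in both replicates about as often as other peaks of their rank, but below the threshold they matched replicate 2 more often. The thresholded list, ranks 1 to 2758, is labelled as set by the irreproducible discovery rate (IDR), a measure of agreement between replicates. High agreement at those ranks can thus follow in part from how the list was made. A replicate summit within 100 bp of the pooled one was asked for in each replicate. At ranks 1 to 2758 both replicates had one for 9 of 10 peaks at tRNA genes (90%) and for 94.4% of all pooled peaks. At ranks 2759 to 10000 this held for 26 of 40 (65%) against 68.6%, and at ranks 10001 to 20000 for 26.1% against 26.3%. It held for 0 of the 29 tRNA peaks at ranks 20001 to 30000, against 3.13% of all peaks there. In the second of these bins replicate 2 matched 95% of the tRNA peaks and 87% of all peaks, while replicate 4 matched 67.5% of the tRNA peaks and 80.4% of all. At ranks 10001 to 20000 replicate 2 matched 73.9% against 62.3%, and replicate 4 45.7% against 56.4%. At ranks 20001 to 30000 replicate 2 matched 44.8% against 38.2%, and replicate 4 27.6% against 37%. At the 114 genes with a peak in both lists the rank was higher in replicate 2 at 68 (59.6%, against 54.2% over all genes). Spearman's rho between the ranks was 0.349 over these genes and 0.417 over 88 of them with 1 gene per replicate 2 peak. This is a description across genes that share peaks, libraries and neighbourhoods, and genes are not replicates.

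**Figure D2:**
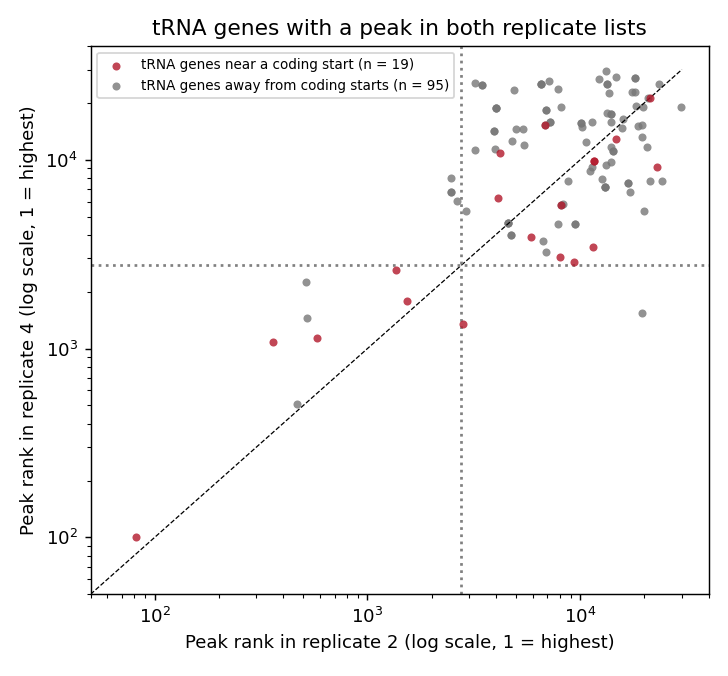
Rank of the peak in replicate 2 (x axis) and replicate 4 (y axis), both log scales with 1 the highest, for the 114 tRNA genes with a peak in both lists, split by distance to a protein-coding start. Dotted lines mark rank 2758 and the dashed line equal ranks; tRNA:Tyr-GTA-1-8 is alone at the lower left (82 and 101), and most genes are a cloud beyond rank 2758 in both.

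Most of the thresholded peaks were at tRNA genes near a protein-coding start. Of the 33 tRNA genes within 500 bp of a coding start, 8 had a thresholded peak, 24.2% (interval 11.1 to 42.3%). Of the 257 genes further away, 3 had one, 1.17% (interval 0.241 to 3.37%). Over all genes the share was 10.6%. Over protein-coding genes it was 12.7%, which lies inside the interval of the tRNA genes near a coding start. The 3 were tRNA:Gln-TTG-2-1, tRNA:Val-CAC-2-5 and tRNA:Glu-TTC-1-5, and the valine summit was itself within 500 bp of the Naam start. By summit, 8 of the 10 distinct thresholded peaks were within 500 bp of a coding start, and 2 were not. The count of 3 changed with the library: with the 2758 highest peaks of replicate 2 alone there were 9 such genes, and with those of replicate 4 alone there were 4. The added replicate 2 genes were the arginine pair and the glycine gene named above, and tRNA:Cys-GCA-1-2, tRNA:Cys-GCA-1-3 and tRNA:Lys-CTT-1-12, which share a peak of rank 2462 in replicate 2. Their replicate 4 peaks ranked 7967, 6744 and 6744. Replicate 4 alone added tRNA:Glu-CTC-2-3, at rank 1550 in replicate 4 and 19569 in replicate 2. The 3 away genes were within the 2758 highest peaks of both replicates.

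In the pooled list the intervals of the classes overlapped, with 24 of 33 genes near a coding start (72.7%, interval 54.5 to 86.7%) and 145 of 257 away from one (56.4%, interval 50.1 to 62.6%). The pooled share was 47.2% over all genes and 52.3% over protein-coding genes. Of the 125 distinct pooled peaks at tRNA genes, 103 had a summit further than 500 bp from any coding start. Of the 8 genes away from coding starts with the highest pooled peaks, only the first 3 passed the threshold. The other 5 were the arginine pair, tRNA:Gly-TCC-2-2, tRNA:Arg-ACG-1-4 and tRNA:Lys-CTT-1-5.

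**Figure D3:**
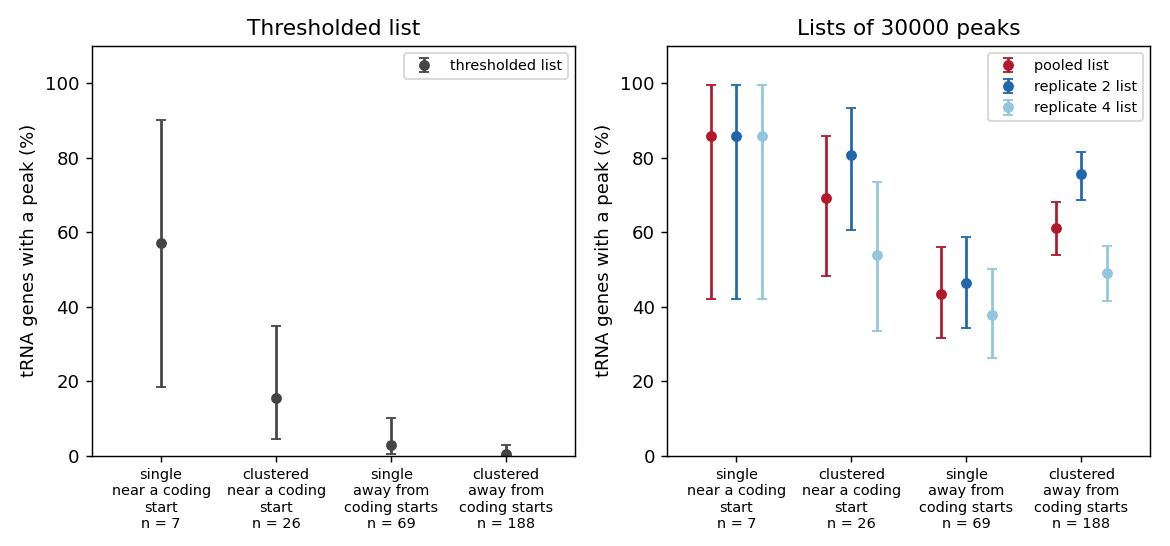
Share of tRNA genes with a peak (y axis, percent, with exact 95% binomial intervals as bars) for single and clustered genes near and away from protein-coding starts, in the thresholded list (left) and in the pooled and replicate lists of 30000 peaks (right). Thresholded shares are 57.1, 15.4, 2.9 and 0.532% from left to right, while in the pooled list clustered genes away from coding starts (61.2%) lie above single ones (43.5%).

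Clustered genes had the smaller share with a thresholded peak and the larger share with a pooled one, with intervals that overlapped in these lists. A gene was clustered when another tRNA gene started within 5000 bp, which put 214 genes in 68 clusters and left 76 single. Thresholded peaks were at 5 clustered genes (2.34%, interval 0.763 to 5.37%) and 6 single genes (7.89%, interval 2.95 to 16.4%). With the 2758 highest peaks of replicate 2 alone the clustered count was 10. Pooled peaks were at 133 clustered genes (62.1%, interval 55.3 to 68.7%) and 36 single genes (47.4%, interval 35.8 to 59.2%). A peak in a cluster can count for several genes: the 133 clustered genes had 89 distinct peaks, the 36 single genes 36. In replicate 2 the shares were 76.2% of clustered genes (interval 69.9 to 81.7%) and 50% of single genes (interval 38.3 to 61.7%). There the 163 clustered genes had 108 distinct peaks and the 38 single genes 38. These intervals did not overlap, but they take genes that share a peak as independent and are too narrow for clustered genes. In replicate 4 the shares were 49.5% of clustered genes and 42.1% of single genes, and the intervals overlapped. The share at single genes, where no peak is counted for 2 tRNA genes, was 47.4% in the pooled list, beside 47.2% for all genes.

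The number of genes with a peak differed between clusters. In 27 of 68 clusters every gene had a pooled peak, in 13 none had, and 4 held a thresholded peak. Many clusters are pairs, in which a single peak can serve both genes, so all or none is a frequent outcome there. The share with a pooled peak was 58.3% over all tRNA genes and 47.2% over all genes. The largest, 11 genes at dm6 chr2R:6161535-6171759 that encode arginine, asparagine, isoleucine and lysine tRNAs, had pooled peaks at 10 genes, replicate 2 peaks at 10 and replicate 4 peaks at 9. The other cluster of 11 genes, at chr3R:17617761-17631750, encodes alanine, proline, threonine and valine tRNAs and had pooled peaks at 8 genes. Replicate 2 had peaks at all 11 of its genes and replicate 4 at 3. A cluster of 7 isoleucine and leucine genes at chr2R:13430282-13432794 had replicate 2 peaks at 7 genes, replicate 4 peaks at 0 and pooled peaks at 3. Another 2 clusters also have 7 genes. The arginine and serine cluster at chrX:14014814-14017284 had no pooled peak, and the cluster of glutamate and initiator methionine genes at chr2R:19725620-19728958, which holds tRNA:Glu-TTC-1-5, had pooled peaks at all 7. Replicate 2 had peaks at more genes than replicate 4 in 38 clusters, replicate 4 at more in 9, and they were equal in 21.

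Most summits lay beside the tRNA gene, which fills only a small part of the window searched. Counted per gene over the 169 genes with a pooled peak, the best summit was upstream at 95 (56.2%), inside at 21 and downstream at 53. These genes had 125 distinct peaks, so a shared summit counts once for each gene. It can be upstream of a gene and downstream of its neighbour. The median position was -46 bp from the start, with quartiles of -230 and 178 bp, negative values being upstream. The median distance of the summit from the start in either direction was 207 bp, against 132 bp at the 7296 protein-coding genes with a pooled peak. The summit lay within 250 bp of the start at 61.5% of these tRNA genes and 74.6% of these protein-coding genes. At the 11 tRNA genes with a thresholded peak, through 10 distinct peaks, the summit was upstream at 7, downstream at 4 and inside none. A tRNA gene is much shorter than the sonicated fragments, so the position of a summit relative to the gene is known only to within a part of a fragment.

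**Figure D4:**
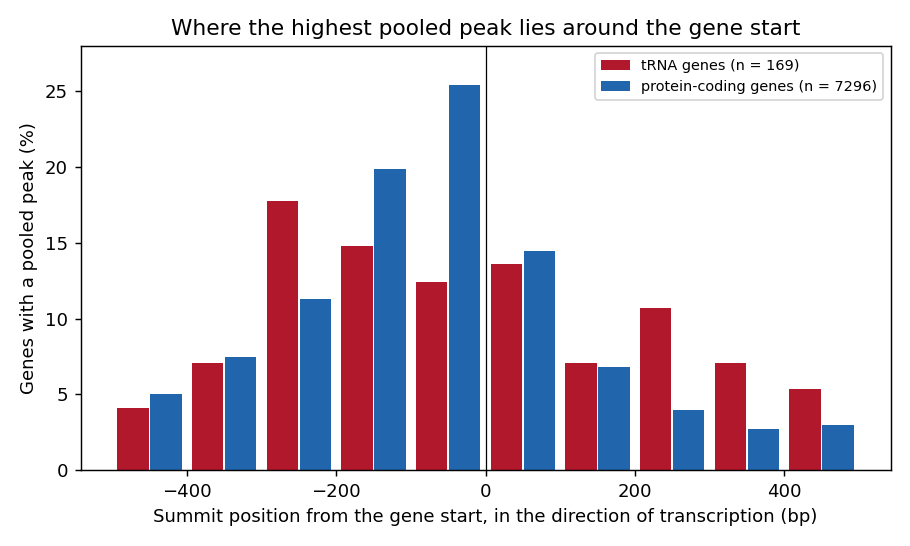
Position of the highest pooled summit relative to the gene start (x axis, bp in the direction of transcription, bins of 100 bp) as a percentage of genes with a pooled peak (y axis), for 169 tRNA genes and 7296 protein-coding genes. Protein-coding summits pile up just upstream of the start, while those at tRNA genes are spread over both sides, with 56.2% upstream against 69.1%.

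The B box core GTTCNANNC was found inside 271 of 290 tRNA genes on their own strand (93.4%). Within 100 bp of the summit on either strand it occurred in 48 of the 125 pooled peaks at tRNA genes (38.4%, interval 29.8 to 47.5%), against 6.42% of all 30000 pooled peaks. The windows were chosen by nearness to tRNA genes and 49 of them overlapped one, so the share depends on the rule that chose them and is only a description. In 36 windows the match was inside a tRNA gene. CACTG occurred in 28.8% of the pooled peaks at tRNA genes (interval 21.1 to 37.6%), against 36% of all pooled peaks. CAACACTG occurred in 2.4% of the tRNA peaks (interval 0.498 to 6.85%), against 1.38% of all, and TATCGATA in 0.8% (interval 0.0203 to 4.38%), against 2.2%. A match of these letters is a description of the sequence and does not show that a factor bound there.

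All 22 isotypes, counting initiator methionine and selenocysteine apart, had at least 1 gene with a pooled peak, and 11 had 1 gene each with a thresholded peak. The share with a pooled peak was 58.3% over all tRNA genes and 47.2% over all genes. By count, which depends on the size of the isotype, leucine had most, 16 of 22 genes (72.7%), with 18 in replicate 2 and 13 in replicate 4. Serine followed with 13 of 20 (17 in replicate 2, 13 in replicate 4). Alanine had 12 of 17 (15 and 10), a share of 70.6%, and arginine also 12, of 26 (12 and 7), a share of 46.2%. By share, aspartate (78.6%) and asparagine (90%) were above leucine. Asparagine genes, which all have 1 sequence, had 9 of 10, and phenylalanine genes, also all identical, 2 of 8. Isotypes differ in how many of their genes sit in the same cluster, and genes that share a peak are counted apart in these numbers.

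**Figure D5:**
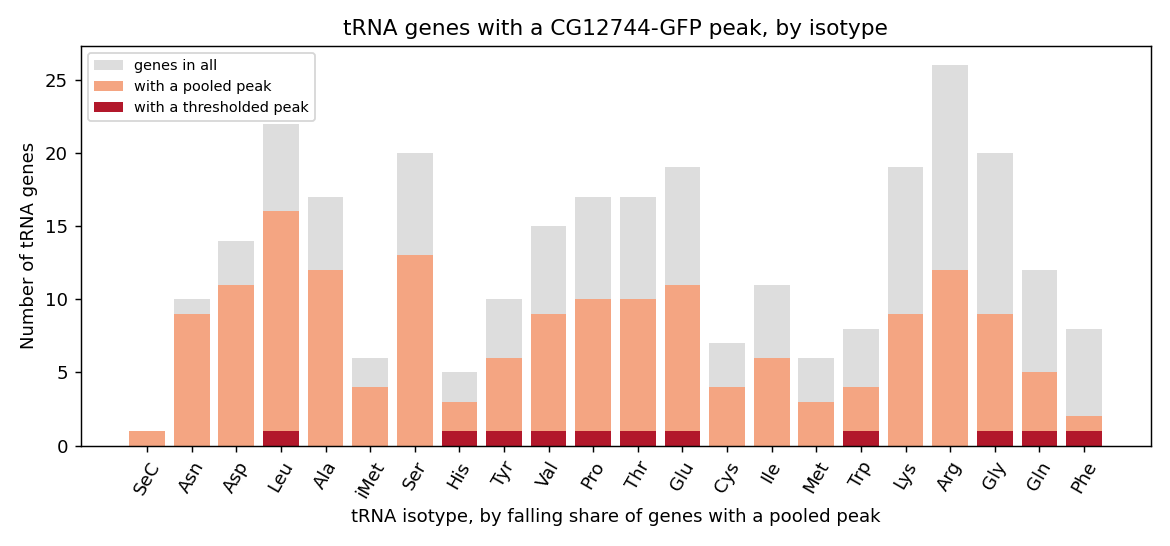
Number of tRNA genes of each isotype (grey bars from 0), with those that have a pooled peak (orange) and a thresholded peak (red) drawn over them, ordered by falling share with a pooled peak (x axis, isotype). Leucine has 16 of 22 genes with a pooled peak, asparagine 9 of 10 and phenylalanine 2 of 8.

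Copies identical to the thresholded genes were not themselves at thresholded peaks. Peaks were assigned by distance and need not overlap the copied sequence. The peak shared by tRNA:Trp-CCA-2-2 and tRNA:Gly-GCC-1-9, 18639101 to 18639510, overlapped neither gene. The 7 other genes with the sequence of tRNA:Phe-GAA-1-2 had 1 pooled peak among them, at rank 7058. Of the 4 copies of tRNA:His-GTG-1-3, 2 had a pooled peak, the best at rank 9455. Of the 5 copies of tRNA:Glu-TTC-1-5, 4 had one, the best at rank 5751, and of the 12 copies of tRNA:Gly-GCC-1-9, 4 had one, the best at rank 4274. The 6 copies of tRNA:Thr-AGT-1-4 had 4, the best at rank 4682. The 5 copies of tRNA:Trp-CCA-2-2 had 3 (best rank 4274), and of the 2 copies of tRNA:Pro-CGG-2-3 the best was at rank 4266. tRNA:Gln-TTG-2-1, tRNA:Leu-TAA-2-1 and tRNA:Tyr-GTA-1-8 have no copy of identical sequence over the whole gene.

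Other genes transcribed by RNA polymerase III also had thresholded peaks, none of which ranked above the 6 highest at tRNA genes. Of 10 such genes other than 5S rRNA, 4 had a thresholded peak, against 10.6% of all genes, and 5 a pooled one, a share close to the 47.2% of all genes. The count of 4 takes snRNA:U6:96Ab and snRNA:U6:96Ac, which share a peak, as separate genes. The peak shared by snRNA:U6:96Ab and snRNA:U6:96Ac, which encode the U6 RNA of the spliceosome, ranked 875 (signal 125 pooled, 78.7 in replicate 2, 47.8 in replicate 4). snRNA:7SKa, a copy of the 7SK RNA that holds back the elongation factor P-TEFb, had a peak of rank 2472 (signal 72.4 pooled, 53.9 in replicate 2, 24.7 in replicate 4), and RNaseMRP:RNA, the RNA of a ribosomal RNA processing enzyme, one of rank 2574 (signal 71 pooled, 41.8 in replicate 2, 26.3 in replicate 4). These genes differ from tRNA genes in having promoter elements upstream of the start. The thresholded summits were 94 bp upstream of the start of snRNA:U6:96Ac and 429 bp downstream of that of snRNA:U6:96Ab. They were 203 bp downstream at snRNA:7SKa and 66 bp downstream at RNaseMRP:RNA. The 100 genes and pseudogenes of 5S rRNA had no peak in any list. They are near-identical copies in 1 array, and whether reads could be placed there is not known from the files.

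Among 21 genes that encode RNA polymerase III, its factors and tRNA-processing proteins, 2 had a thresholded peak, against 12.7% of protein-coding genes. Both encode subunits of TFIIIB. The peak at Bdp1 ranked 71 (signal 360 pooled, 173 in replicate 2, 185 in replicate 4), higher than any at a tRNA gene, and was shared with CG6565. The peak at Brf ranked 187 (signal 247 pooled, 124 in replicate 2, 123 in replicate 4) and was shared with sds22. Pooled peaks of any rank lay at 18 of the 21, against 52.3% of protein-coding genes, and 16 had a peak in both replicates, against 39.9% of protein-coding genes. No pooled peak lay at Polr3A, Polr3I or Trf, the TBP-related factor that serves RNA polymerase III in flies. This list was assembled with earlier results of these data known.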

How the data were processed

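Anti-GFP chromatin immunoprecipitation was sequenced from CG12744-GFP embryos, 2 biological replicates of 1 group. The authors deposited narrowPeak lists. There is 1 list of 30000 peaks per replicate and 1 pooled list of 30000, called with a control, as the deposited text records state. The pooled list is labelled as peaks and background together. The fourth is a thresholded list of 2758 peaks, which are the 2758 highest of the pooled list. Its label names the irreproducible discovery rate, a measure of agreement between replicates, as the basis of the threshold. The deposited signal value of each peak is the authors' own, on a scale that is not stated, and was used only within a list. The summit offset, in bp from the peak start, is also from the deposited lists. No source used here gives the peak caller, the aligner or the read depth. The control was not analysed here.

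Genes came from the Ensembl release 115 annotation of Release 6 (dm6), without transposable elements. All 290 tRNA genes have the same coordinates in RefSeq, and sequences were read from the Release 6 genome. A gene had a peak when a summit lay within 500 bp of its annotated start. It was near a coding start when any base was within 500 bp of a protein-coding transcript start, and clustered when another tRNA gene started within 5000 bp. Shares have exact 95% Clopper-Pearson intervals. No test was run, since the members and lists were chosen with earlier results of these data known. Named genes were those with a thresholded peak, the next 8, the 8 highest away from coding starts, the clusters of most genes, the 3 isotypes with most genes at pooled peaks (4 with the tie) and the other RNA polymerase III genes with a thresholded peak. Copies of these genes, and others named for contrast, were chosen after their values were seen. The counting was tested on simulated data. Alternatives were other windows, overlap with the gene body, the higher-ranked part of each list, and each replicate alone. Python 3.11.15, numpy 2.4.6, pandas 2.3.3, scipy 1.17.1 and matplotlib 3.10.9 were used.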

Additional observations from a re-analysis of the deposited data

How the results depend on the processing

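Of 55 recomputed counts, 28 were within 1.5 times of the reported one and 27 were not; the cause was not tested beyond what each rule does by construction. With a window of 250 bp the thresholded count of tRNA genes was 7, of which 1 was away from coding starts and 3 were clustered, and the pooled count was 111 and that of both replicates 53. With 1000 bp these were 19 thresholded genes, 10 away from coding starts, 12 clustered, and 177 in both replicates. When a peak had to overlap the gene by at least 1 bp there were 5 thresholded genes through 5 distinct peaks (4 near and 1 away from coding starts, 2 clustered, 3 single), 105 with a pooled peak and 51 in both replicates. With the 1379 highest thresholded peaks there were 6 genes through 6 distinct peaks, of which 3 were near coding starts, 3 clustered and 3 single. Limited to the 10000 highest peaks, 75 genes had a pooled peak and 32 a peak in both replicates. At any rank, 65 genes had replicate summits within 100 bp of each other. Leaving out 1 replicate gave 4 to 9 thresholded genes away from coding starts and 5 to 10 clustered ones. Other cluster distances kept their counts within 1.5 times. No paired analysis was possible because there is only 1 group. The unknown read depth and the unknown handling of reads that match several tRNA copies limit what the absence of a peak shows.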
